A study of Homo sapiens with 9 samples.

Results

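The genes described here are the cytosolic heat shock proteins, their cochaperones and the cytosolic chaperonin, together with the heat shock transcription factors HSF1 and HSF2. The 42 genes were chosen by gene symbol and family, with no threshold on a measured value, but the list was drawn up with earlier results of these libraries known, among them the rise of HSPA6. Values of HSPA6 are therefore given as a description without a test, and counts over the list describe these libraries and are not independent evidence. Of the 42 genes, 41 had values among the 24204 symbols measured, and DNAJA4 was not analysed here. FPKM, the fragments of a gene scaled to its length and to the depth of the library, was 1 or more in 3 or more of 9 libraries for 39 of them, and 11265 genes in all met this limit and were tested. HSPA2 and DNAJB5 lay below that limit. The label "cytosolic" holds for most of the list, but HSPD1, HSPE1 and HSPA9 encode chaperones of the mitochondrial matrix.

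RNA-seq was done in HepG2, an established human liver cancer cell line, to ask which transcripts depend on TRIB3, a stress-induced pseudokinase. All 9 libraries came from cells infected with a lentivirus for 48 h and then selected with puromycin for 48 h, so the controls carried virus and drug selection too. The virus delivered a control short hairpin RNA (shCtrl, 3 libraries) or a hairpin that targets TRIB3, of which there were 2, called shTRIB3-1 and shTRIB3-2 (3 libraries each). The labels give high-glucose medium with serum. The study's methods describe RNA from glutamine-deprived cells, in a paragraph shared with its RNA-seq of glutamine deprivation. Its discussion reports perturbed DNA repair gene expression after TRIB3 depletion in cells that were not deprived of glutamine. The medium at harvest is therefore uncertain. No label says that the 3 libraries of a group came from separate cultures, and the p-values then measure only the spread between these libraries, which may be technical. The 21-base targets of both hairpins are shown because the hairpins differed in the genes described here. Each matched TRIB3 transcripts exactly (4 transcripts for the first, 3 for the second).
shTRIB3-1: TGGATGACAACTTAGATACCG
shTRIB3-2: GCCGTGCTCTTCCGCCAGATG

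TRIB3 was lowered in both knockdown groups. TRIB3 stood at 67.9, 65.8 and 66.6 FPKM in the shCtrl libraries, 34.1, 32.7 and 34.0 in shTRIB3-1 and 20.6, 20.7 and 20.4 in shTRIB3-2 (log2 fold change -0.99 ± 0.03 SE, adjusted p = 5.30e-11 for shTRIB3-1, and -1.70 ± 0.03, adjusted p = 5.39e-13 for shTRIB3-2). TRIB3 was also lower with shTRIB3-2 than with shTRIB3-1 (-0.71 ± 0.03, adjusted p = 9.54e-09). Depth was 34206726 to 36311029 fragments per library. All 10 listed hepatocyte markers were at or above 1 FPKM in every library, with a sum of 10016 to 10790 FPKM in shCtrl, 9394 to 9874 in shTRIB3-1 and 11750 to 12118 in shTRIB3-2. Of 10 markers of blood, endothelial, fibroblast and bile duct cells, 7 stayed under 1 FPKM in all libraries, including PTPRC, PECAM1 and COL1A1. The other 3 were above 1 FPKM in all libraries, namely CD68 (28.9 to 38.9 FPKM), ACTA2 (39.1 to 62.9 FPKM) and KRT19. The sum of all 10 was 312 to 344 FPKM in shCtrl, 682 to 734 in shTRIB3-1 and 704 to 717 in shTRIB3-2. Most of it came from KRT19, a keratin of bile duct and progenitor cells (234 ± 10.9, 632 ± 23.5 and 622 ± 6.81 FPKM in the 3 groups, mean ± SD, n = 3). The part of this rise in the results below was not tested.

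Heat shock proteins are chaperones that hold unfolded proteins in solution, fold them or pass them on for degradation. In unstressed cells HSF1 is kept inactive by chaperones. When unfolded proteins occupy those chaperones, HSF1 forms trimers, binds heat shock elements in promoters and switches on inducible genes such as HSPA1A and DNAJB1, while constitutive chaperones such as HSPA8 and the CCT chaperonin serve folding at all times. Liver cells make large amounts of secreted protein and carry a high constitutive chaperone load.

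A heat shock element is a row of inverted 5-base units with the core GAA or TTC. RefSeq promoter windows from 250 bases before to 50 bases after each start site (GRCh38.p14) were found for 37 of the 42 genes, and no entry was used for HSF1, HSPA14, CRYAB, FKBP4 and ST13. Motifs were searched on both strands, and a gene counted if any of its windows held a match. The 37 genes had 53 windows, of which 21 belonged to 13 inducible and 27 to 20 constitutive genes. All 27305 genes with a window had 35116 windows. The shares below are not adjusted for the number of windows per gene. A run of 3 adjoining units (GAANNTTCNNGAA or TTCNNGAANNTTC) stood in the windows of 8 of these 37 genes (21.6%), against 166 of 27305 genes with a window (0.608%). A pair of adjoining units (GAANNTTC or TTCNNGAA), which every match of the longer motif contains, stood in 22 of 37 (59.5%), against 4417 of all genes (16.2%). By class, the pair was found in 11 of 13 inducible genes with a window (84.6%) and in 10 of 20 constitutive genes (50%), while the longer motif was found in 3 of 13 (23.1%) and 5 of 20 (25%). A match describes letters and not a bound site.

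The following promoter stretches are shown because their genes carry the results below. They are given 5′ to 3′ on the strand of the gene, and capitals mark the matches to either motif. Position is counted from the RefSeq start site of the window shown, and each stretch lies upstream of that site. DNAJB1, HSP90AA1, HSP90AB1 and HSPD1 have more than 1 start site, and 1 window of each is shown. Pairs outside these stretches are not shown, among them a DNAJB1 pair at positions 1 to 8 of another window.
HSPA6 (chr1:161524446-161524498, plus strand, -94 to -42): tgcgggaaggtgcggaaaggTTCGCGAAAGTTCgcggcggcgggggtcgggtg
HSPA1A (chr6:31815417-31815464, plus strand, -126 to -79): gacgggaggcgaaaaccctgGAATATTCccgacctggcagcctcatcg
HSPA1B (chr6:31827613-31827660, plus strand, -125 to -78): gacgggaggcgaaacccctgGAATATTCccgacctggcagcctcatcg
DNAJB1 (chr19:14518417-14518494, minus strand, -97 to -20): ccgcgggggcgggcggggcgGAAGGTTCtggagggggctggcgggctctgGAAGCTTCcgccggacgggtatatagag
HSPB1 (chr7:76302471-76302518, plus strand, -202 to -155): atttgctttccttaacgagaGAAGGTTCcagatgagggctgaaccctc
CHORDC1 (chr11:90223065-90223129, minus strand, -80 to -16): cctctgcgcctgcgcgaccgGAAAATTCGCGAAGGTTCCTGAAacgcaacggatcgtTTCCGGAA
HSP90AA1 (chr14:102087100-102087152, minus strand, -108 to -56): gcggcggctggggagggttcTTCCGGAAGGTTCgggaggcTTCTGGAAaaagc
HSP90AB1 (chr6:44247758-44247863, plus strand, -185 to -80): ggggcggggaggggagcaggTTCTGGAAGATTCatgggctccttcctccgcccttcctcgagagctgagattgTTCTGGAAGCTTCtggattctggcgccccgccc
HSPD1 (chr2:197500048-197500090, minus strand, -250 to -208): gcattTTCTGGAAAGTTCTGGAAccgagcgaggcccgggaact
The HSPA1A and HSPA1B stretches each held 1 pair of units at nearly the same distance from the start. The HSPA1A stretch lies between HSPA1A and its neighbour HSPA1L, which runs the other way. HSP90AB1 and HSPD1, which are constitutive genes, held 3-unit matches as HSPA6, CHORDC1 and HSP90AA1 did. For HSP90AA1, HSP90AB1 and HSPD1 these stood in the window shown and not in the other windows of the gene. The stretches of DNAJB1, HSP90AA1, HSP90AB1 and HSPD1 lie inside the span of the gene in GENCODE v44. The windows of HSPH1 and BAG3 held neither motif.

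Heat shock transcripts rose broadly with shTRIB3-1 and in a smaller set with shTRIB3-2. Here "rose" and "fell" are used at an adjusted p under 0.05, and "called" means that the change also exceeded 1 on the log2(FPKM + 0.1) scale. With shTRIB3-1, 30 of the 39 tested genes rose and 2 fell, where 32.9% of all tested genes rose and 41.5% fell. Of these, 11 genes were called higher and 0 lower, where 5.39% of all tested genes were called higher and 6.1% lower. The 39 genes had a median log2 fold change of 0.50, and all tested genes had one of -0.056. Without HSPA6, 29 of 38 rose, 10 were called higher and the median was 0.47. With shTRIB3-2, 20 of 39 rose and 11 fell (35.4% and 40.5% of all tested genes), 4 were called higher and 0 lower (6.06% and 6.27%), and the median was 0.12 beside -0.035 over all tested genes. Without HSPA6, 19 of 38 rose with shTRIB3-2, 3 were called higher and the median was 0.079. Both comparisons used the same 3 shCtrl libraries. HSPA1L passed the filter only through knockdown libraries, so its place in these counts is set in part by the filter. In bulk RNA, a change in the share of cells that express a gene and a change in RNA per cell cannot be told apart.

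The hairpins differed from each other in these genes. Between shTRIB3-2 and shTRIB3-1, 33 of the 39 genes were lower with shTRIB3-2 and 0 were higher, where 20.7% of all tested genes were lower and 25.1% higher. Of these, 8 were called lower and 0 higher, where 1.79% and 0.284% of all tested genes were called. Without HSPA6, 32 of 38 were lower and 7 were called lower. TRIB3 itself was lower with shTRIB3-2 than with shTRIB3-1. HSF2, HSPA1L, HSPA14, DNAJA2, DNAJB6 and CCT5 were the 6 genes that did not pass between the hairpins. Each hairpin was a group of its own, so an effect of lower TRIB3 and any other effect of a hairpin cannot be told apart.

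**Figure D1:**
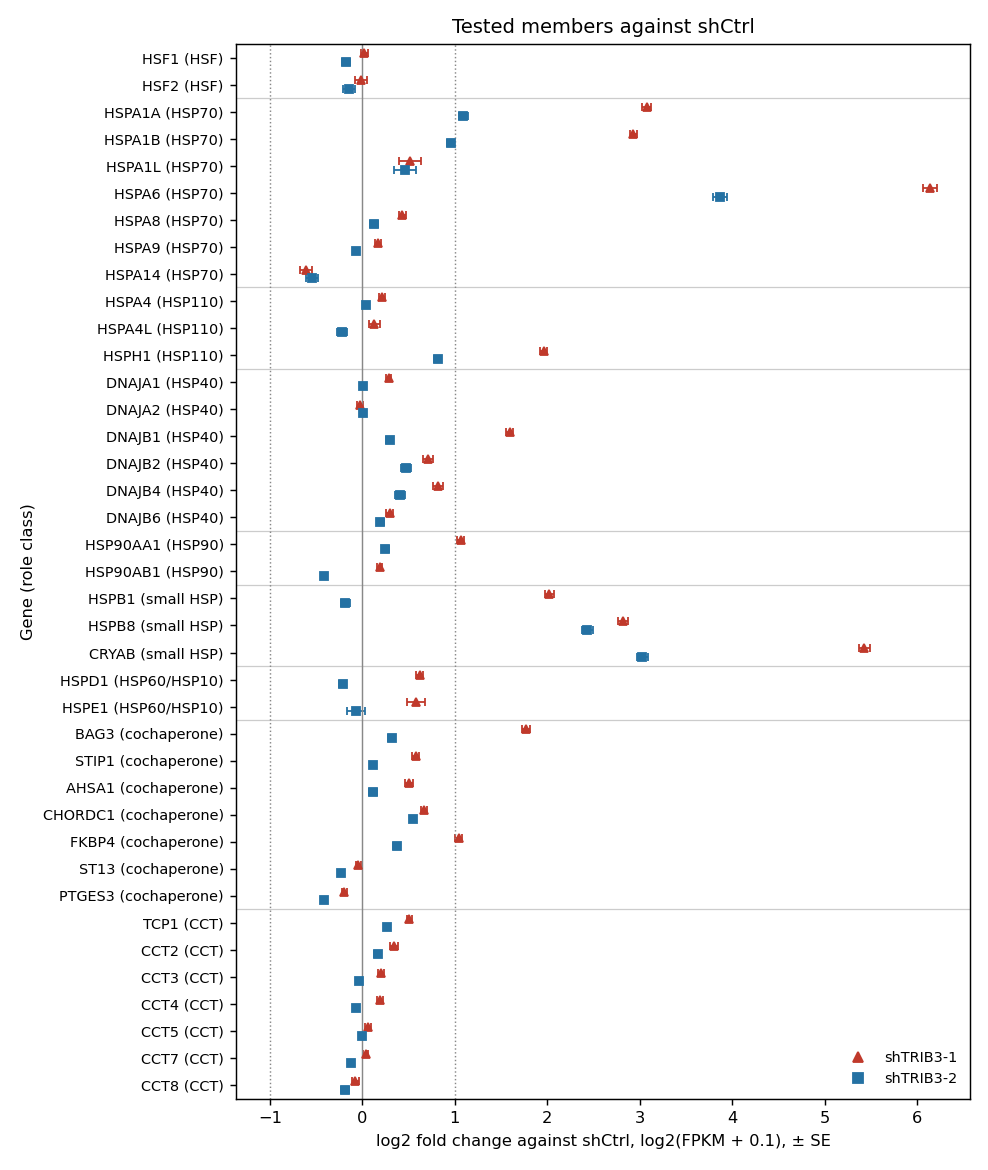
Log2 fold change against shCtrl (x axis, log2 of FPKM + 0.1) of the 39 tested genes by role class, with triangles for shTRIB3-1, squares for shTRIB3-2, SE as bars and dotted lines at a change of 1. HSPA6 and CRYAB lie farthest to the right with both hairpins, 11 genes lie right of the dotted line with shTRIB3-1, and the CCT subunits lie between -0.19 and 0.51.

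HSF1 and HSF2, the transcription factors that read the heat shock element, did not pass the test with shTRIB3-1. HSF1 stood at 27.9, 26.2 and 28.1 FPKM in the shCtrl libraries, 28.4, 27.3 and 27.6 in shTRIB3-1 and 24.9, 24.4 and 23.4 in shTRIB3-2. The first hairpin left it at 0.020 ± 0.039 SE on the log2 scale (adjusted p = 0.656), and HSF1 fell slightly with shTRIB3-2 (log2 fold change -0.18 ± 0.039 SE, adjusted p = 0.00126). HSF2 stood at 6.64, 6.82 and 6.53 FPKM in the shCtrl libraries, 5.98, 6.89 and 6.93 in shTRIB3-1 and 6.44, 5.90 and 5.74 in shTRIB3-2. Its shTRIB3-2 libraries lay below all shCtrl libraries, but the change of -0.14 ± 0.066 SE did not pass (adjusted p = 0.0647). It passed without shTRIB3-2 replicate 1 (adjusted p = 0.028), without shTRIB3-1 replicate 1 (0.0337) and on TPM (0.0482). Transcript levels say nothing of HSF1 activity, which is set on the protein.

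Among the HSP70 genes, the stress-inducible members were the most changed. HSPA6, an inducible HSP70 with almost no expression in resting cells, had 1.78, 1.98 and 1.52 FPKM in the shCtrl libraries, 128, 137 and 126 in shTRIB3-1 and 25.8, 26.6 and 28.1 in shTRIB3-2. The groups did not overlap, and the knockdown means were 74.0-fold and 15.3-fold the shCtrl mean. Behind these values were 128 to 169 fragments in shCtrl, 10283 to 11077 in shTRIB3-1 and 2077 to 2326 in shTRIB3-2. Of its 100-base windows, 27.8% occur also in the pseudogene HSPA7, so part of the signal may be shared with that copy.

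HSPA1A stood at 80.3, 82.4 and 78.6 FPKM in the shCtrl libraries, 691, 722 and 623 in shTRIB3-1 and 168, 175 and 172 in shTRIB3-2. HSPA1B stood at 91.4, 93.1 and 88.3 FPKM in the shCtrl libraries, 681, 726 and 676 in shTRIB3-1 and 170.4, 181 and 178 in shTRIB3-2. These neighbouring genes on chromosome 6 encode the main stress-inducible HSP70. Of the 100-base windows of HSPA1A, 72.4% occur in HSPA1B, so the split between them is uncertain. Another gene, ENSG00000285565, shares 31.6% of the HSPA1A windows and 34.0% of the HSPA1B windows, and its part in the signal was not tested. The sum of HSPA1A and HSPA1B was 172, 176 and 167 FPKM in shCtrl, 1371, 1447 and 1299 in shTRIB3-1 and 338, 356 and 349 in shTRIB3-2. That is 8.01-fold and 2.03-fold the shCtrl mean, and the 3 groups did not overlap. HSPA1A rose by 3.07 ± 0.047 SE on the log2 scale with shTRIB3-1 (adjusted p = 3.04e-13) and by 1.09 ± 0.047 with shTRIB3-2 (adjusted p = 7.24e-10). HSPA1B rose by 2.93 ± 0.037 (adjusted p = 4.04e-14) and 0.95 ± 0.037 (adjusted p = 2.71e-10), the latter just under the size that counts as called. With shTRIB3-2 they were 1.98 ± 0.047 and 1.98 ± 0.037 lower on the log2 scale than with shTRIB3-1 (adjusted p = 7.73e-11 and 2.43e-11).

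HSPA8, the constitutive HSP70 that serves folding and clathrin uncoating, changed far less. HSPA8 stood at 906, 859.5 and 850.4 FPKM in the shCtrl libraries, 1146, 1227 and 1157 in shTRIB3-1 and 927, 976 and 955 in shTRIB3-2. All shTRIB3-1 libraries were above all shCtrl libraries (log2 fold change 0.43 ± 0.04 SE, adjusted p = 9.20e-07), and the shTRIB3-2 rise was small (log2 fold change 0.13 ± 0.04 SE, adjusted p = 0.0117). That smaller rise did not pass without shCtrl replicate 3 (adjusted p = 0.051) or with every symbol tested (0.0553). In shCtrl, the summed level of HSPA1A and HSPA1B per length was 0.190, 0.204 and 0.196 of the HSPA8 level. It was 1.20, 1.18 and 1.12 of it in shTRIB3-1 and 0.365, 0.365 and 0.366 in shTRIB3-2, so the level of the inducible pair exceeded that of HSPA8 in the shTRIB3-1 libraries only.

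The remaining HSP70 genes differed in direction. HSPA14, a ribosome-associated HSP70, fell with both hairpins, from 9.44, 10.4 and 10.98 FPKM in shCtrl to 6.62, 6.29 and 7.21 in shTRIB3-1 (log2 fold change -0.61 ± 0.064 SE, adjusted p = 2.95e-06) and 7.18, 6.98 and 6.90 in shTRIB3-2 (log2 fold change -0.54 ± 0.064 SE, adjusted p = 7.79e-06). Of its windows, 13.2% are shared with the overlapping gene MSANTD7. HSPA9, the mitochondrial HSP70, rose from 131 ± 1.28 FPKM (mean ± SD, n = 3) to 147 ± 3.30 with shTRIB3-1 (adjusted p = 1.93e-04), and stood at 125 ± 2.65 with shTRIB3-2 (adjusted p = 0.0502), which passed as a fall in 7 of 18 alternative settings, among them TPM (0.0141). HSPA1L, a testis-enriched HSP70 next to HSPA1A, had 64 to 70 fragments in shCtrl and 86 to 100 in the knockdown libraries, at 0.638 to 1.06 FPKM. It passed as higher with both hairpins (log2 fold change 0.52 ± 0.12 SE, adjusted p = 0.00162, and 0.46 ± 0.12, adjusted p = 0.00365), a rise set in part by the filter. HSPA2, another testis-enriched HSP70, had 1 to 5 fragments per library, which is too few for a difference to be detectable.

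**Figure D2:**
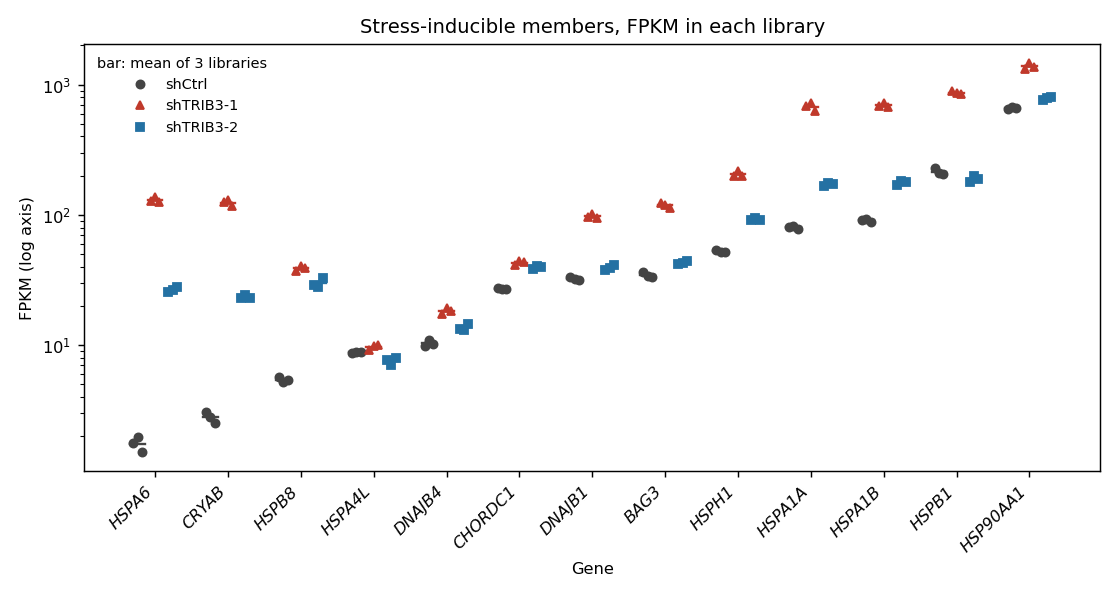
FPKM (log axis) of the 13 tested inducible genes in each of the 9 libraries, ordered by the shCtrl mean, with circles for shCtrl, triangles for shTRIB3-1, squares for shTRIB3-2 and bars for group means. In every gene the triangles lie highest, and HSPA4L and HSPB1 have their squares below the circles.

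Genes without a printed stretch lie on GRCh38 (GENCODE v44) at chr13:31134973-31162388 for HSPH1, chr12:119171555-119224855 for HSPB8, chr11:111908564-111923722 for CRYAB, chr10:119651380-119677819 for BAG3, chr12:2794970-2805423 for FKBP4 and chr20:362835-397559 for TRIB3, all protein coding.

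The HSP110 genes encode relatives of HSP70 that act as nucleotide exchange factors for it. The inducible member HSPH1 rose. HSPH1 stood at 53.6, 51.9 and 52.3 FPKM in the shCtrl libraries, 199, 217 and 199 in shTRIB3-1 and 90.7, 95.1 and 91.9 in shTRIB3-2. The groups did not overlap, with log2 fold change 1.96 ± 0.037 SE, adjusted p = 1.70e-12 for shTRIB3-1, 0.81 ± 0.037 for shTRIB3-2 (adjusted p = 1.18e-09) and -1.14 ± 0.037 between the hairpins (adjusted p = 9.60e-10). HSPA4, its constitutive relative, rose with shTRIB3-1, from 66.1 ± 0.782 to 76.5 ± 2.97 FPKM (adjusted p = 8.17e-05), and stood at 68.1 ± 0.927 with shTRIB3-2 (adjusted p = 0.237), which passed as a rise after median centring (0.0408) and quantile normalization (0.0301). HSPA4L was 8.84 ± 0.102, 9.70 ± 0.418 and 7.59 ± 0.527 FPKM in shCtrl, shTRIB3-1 and shTRIB3-2. Its rise with shTRIB3-1 was at the threshold (adjusted p = 0.0499) and was lost in 9 of 18 alternative settings (highest adjusted p = 0.307), 6 of which left out 1 library, controls included. Its fall with shTRIB3-2 passed (log2 fold change -0.22 ± 0.056 SE, adjusted p = 0.00317).

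HSP40 proteins, or J-domain proteins, deliver clients to HSP70 and start its ATP cycle. DNAJB1, the main inducible HSP40 and partner of HSPA1A, rose with both hairpins. DNAJB1 stood at 33.1, 32.0 and 31.4 FPKM in the shCtrl libraries, 95.7, 102 and 94.5 in shTRIB3-1 and 38.0, 39.3 and 41.4 in shTRIB3-2. The 3 groups did not overlap, and the mean was 3.02-fold shCtrl with shTRIB3-1 (adjusted p = 1.24e-11) and 1.23-fold with shTRIB3-2 (adjusted p = 2.48e-05). DNAJB4, also heat-inducible, went from 10.3 ± 0.591 FPKM to 18.3 ± 0.871 (adjusted p = 4.64e-08) and 13.7 ± 0.729 (adjusted p = 2.60e-05). DNAJB2, a client-sorting HSP40, went from 15.7 ± 0.407 to 25.7 ± 1.396 and 21.8 ± 1.31 FPKM, and both rises passed. DNAJB6, which suppresses aggregation, rose less, from 26.1 ± 0.749 to 32.1 ± 0.788 and 29.9 ± 1.32 FPKM. DNAJA1, a constitutive HSP40, rose with shTRIB3-1 alone of the 2 tests (0.28 ± 0.031 SE, adjusted p = 4.20e-06) and stood at 0.0031 ± 0.031 with shTRIB3-2. DNAJA2 stood between 48.7 and 52.5 FPKM in all 9 libraries and passed in no comparison. DNAJB5 was below the filter, at 0.138 to 0.208 FPKM in shCtrl (17 to 26 fragments), 0.576 to 0.907 in shTRIB3-1 and 0.687 to 1.05 in shTRIB3-2 (69 to 124 fragments in the knockdown libraries), with every knockdown library above every control.

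HSP90 holds late folding intermediates such as kinases and steroid receptors, and the cytosol has an inducible form, HSP90AA1, and a constitutive form, HSP90AB1. HSP90AA1 stood at 650.0, 671 and 666 FPKM in the shCtrl libraries, 1326, 1456 and 1369 in shTRIB3-1 and 767, 796 and 799 in shTRIB3-2. It rose with both hairpins, by 1.06 ± 0.039 SE (log2, adjusted p = 2.50e-10) and 0.25 ± 0.039 (adjusted p = 9.63e-05). HSP90AB1 stood at 1066, 1060.2 and 1059.7 FPKM in the shCtrl libraries, 1197, 1236 and 1191 in shTRIB3-1 and 789, 807 and 799 in shTRIB3-2. It rose slightly with shTRIB3-1 (log2 fold change 0.19 ± 0.032 SE, adjusted p = 1.81e-04) and fell with shTRIB3-2 (log2 fold change -0.41 ± 0.032 SE, adjusted p = 1.38e-07), and no groups overlapped. The rise did not pass after quantile normalization (adjusted p = 0.0655). The ratio of HSP90AA1 to HSP90AB1 per length was 0.610, 0.633 and 0.629 in shCtrl, 1.11, 1.18 and 1.15 in shTRIB3-1 and 0.971, 0.987 and 1.00 in shTRIB3-2. The ratio was thus higher in every knockdown library than in every control, with both forms moving in shTRIB3-2.

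Small heat shock proteins bind unfolding proteins without ATP and hold them for HSP70. All 3 tested genes of this class were called higher with shTRIB3-1, and they differed among themselves with shTRIB3-2. CRYAB, or alpha-B-crystallin, had the largest tested rise of the list. CRYAB stood at 3.04, 2.82 and 2.53 FPKM in the shCtrl libraries, 127, 129 and 117 in shTRIB3-1 and 23.1, 24.4 and 22.9 in shTRIB3-2. Behind these were 125 to 150 fragments in shCtrl, 5603 to 6096 in shTRIB3-1 and 1090 to 1167 in shTRIB3-2. Its mean was 44.4-fold shCtrl with shTRIB3-1 (log2 fold change 5.43 ± 0.061 SE, adjusted p = 2.04e-14) and 8.38-fold with shTRIB3-2 (log2 fold change 3.03 ± 0.061 SE, adjusted p = 1.29e-12). An antisense gene overlaps 13.6% of the exon bases of CRYAB, and whether counting used strand is not given in the sources used here.

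HSPB8, the partner of BAG3 in selective autophagy of aggregates, rose with both hairpins, less so with the second. HSPB8 stood at 5.69, 5.22 and 5.40 FPKM in the shCtrl libraries, 37.3, 40.7 and 38.9 in shTRIB3-1 and 28.7, 28.1 and 32.7 in shTRIB3-2. The log2 fold change was 2.82 ± 0.058 SE with the first hairpin (adjusted p = 3.18e-12) and 2.43 ± 0.058 with the second (adjusted p = 5.12e-12), and the difference between the hairpins, -0.38 ± 0.058, passed (adjusted p = 2.22e-04). HSPB1, or HSP27, is far more abundant and moved in opposite directions. HSPB1 stood at 227, 209.7 and 206 FPKM in the shCtrl libraries, 897, 869 and 842 in shTRIB3-1 and 179.7, 199 and 187 in shTRIB3-2. It rose 4.06-fold with shTRIB3-1 (adjusted p = 6.62e-12) and fell with shTRIB3-2 (log2 fold change -0.18 ± 0.047 SE, adjusted p = 0.00361), with no overlap between any groups. The fall did not pass after median centring (-0.13, adjusted p = 0.0644). HSPB1 was 4.61-fold higher with shTRIB3-1 than with shTRIB3-2 (adjusted p = 5.41e-11).

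HSPD1 (HSP60) and HSPE1 (HSP10) form the folding chamber of the mitochondrial matrix and are known to share a promoter region between their head-to-head start sites on chromosome 2. HSPD1 stood at 873, 900.4 and 923 FPKM in the shCtrl libraries, 1335, 1419.8 and 1397 in shTRIB3-1 and 762, 798 and 772 in shTRIB3-2. HSPD1 rose with shTRIB3-1 (log2 fold change 0.62 ± 0.038 SE, adjusted p = 1.85e-08) and fell with shTRIB3-2 (log2 fold change -0.21 ± 0.038 SE, adjusted p = 2.66e-04). The fall did not pass after quantile normalization (adjusted p = 0.136). HSPE1 stood at 132, 178 and 166 FPKM in the shCtrl libraries, 223, 241 and 245 in shTRIB3-1 and 141, 169 and 141 in shTRIB3-2. HSPE1 rose with shTRIB3-1 (log2 fold change 0.58 ± 0.098 SE, adjusted p = 1.70e-04), and its shTRIB3-2 libraries overlapped shCtrl (-0.071 ± 0.098, adjusted p = 0.524). Without shCtrl replicate 1, the lowest control, the shTRIB3-2 value was -0.20 (adjusted p = 0.0271). Of the HSPE1 windows, 31.7% are shared with other transcripts, mostly the read-through gene HSPE1-MOB4. The HSPD1 to HSPE1 ratio per length ran from 5.05 to 6.62 in shCtrl, 5.71 to 5.996 in shTRIB3-1 and 4.72 to 5.47 in shTRIB3-2.

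**Figure D3:**
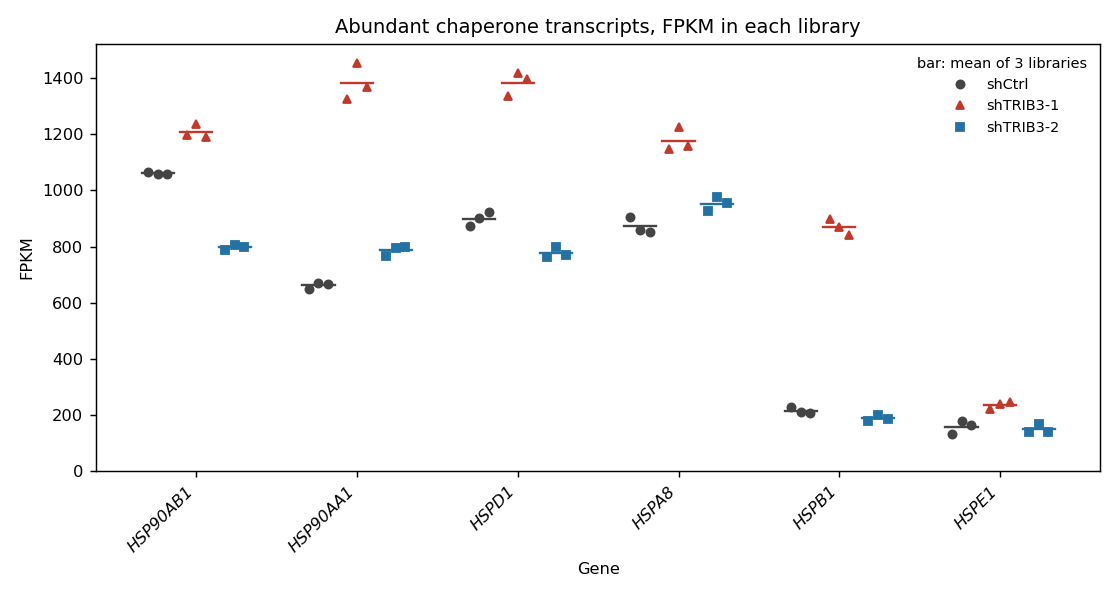
FPKM (linear axis from 0) of the 6 genes HSP90AB1, HSP90AA1, HSPD1, HSPA8, HSPB1 and HSPE1 in each library, with bars for group means of 3 libraries. Triangles (shTRIB3-1) lie highest in every gene, and squares (shTRIB3-2) lie below circles (shCtrl) in HSP90AB1, HSPD1 and HSPB1.

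Cochaperones of HSP70 and HSP90 split into a group that rose and a pair that did not. BAG3, an inducible nucleotide exchange factor that links HSP70 to autophagy, rose with both hairpins. BAG3 stood at 36.7, 33.8 and 33.5 FPKM in the shCtrl libraries, 123, 118 and 114 in shTRIB3-1 and 42.2, 42.8 and 44.5 in shTRIB3-2. The mean was 3.41-fold shCtrl with shTRIB3-1 (adjusted p = 8.71e-12) and 1.24-fold with shTRIB3-2 (adjusted p = 2.16e-05). FKBP4 stood at 24.2, 25.8 and 26.1 FPKM in the shCtrl libraries, 51.4, 53.5 and 51.9 in shTRIB3-1 and 31.8, 33.0 and 33.6 in shTRIB3-2. This immunophilin of the HSP90 receptor complex rose 2.06-fold (adjusted p = 1.83e-10) and 1.29-fold (adjusted p = 1.66e-06). It was the 1 constitutive gene called with shTRIB3-1, and its change fell under the called size on TPM. CHORDC1, a heat-inducible HSP90 cochaperone, went from 27.1 ± 0.153 FPKM to 43.0 ± 1.46 and 39.7 ± 1.2, and both rises passed. STIP1, which bridges HSP70 and HSP90, went from 116 ± 4.21 to 173 ± 3.97 and 126 ± 3.35 FPKM (adjusted p = 1.71e-08 and 0.00906).

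AHSA1, the activator of the HSP90 ATPase, went from 113 ± 6.81 to 159.7 ± 1.05 FPKM with the first hairpin (adjusted p = 2.39e-07) and 122 ± 3.32 with the second (adjusted p = 0.0194). The latter rise was lost in 5 of 18 alternative settings (highest adjusted p = 0.107), among them leaving out shCtrl replicate 2 or shTRIB3-2 replicate 1 or 2. PTGES3, the p23 cochaperone that stabilises closed HSP90, fell with both hairpins, from 105 ± 2.24 FPKM to 92.0 ± 0.953 (adjusted p = 3.50e-05) and 78.9 ± 0.827 (adjusted p = 3.27e-08). ST13, or HIP, which slows the release of HSP70 clients, fell with shTRIB3-2 (log2 fold change -0.23 ± 0.027 SE, adjusted p = 7.81e-06), and stood at -0.046 ± 0.027 with shTRIB3-1 (adjusted p = 0.14), a value that passed as a fall on TPM (0.00883) and after quantile normalization (3.68e-04).

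The CCT chaperonin, also called TRiC, is a ring of different subunits that folds actin and tubulin. The 7 CCT genes on the list had median log2 fold changes of 0.19 and -0.037 with the first and second hairpin. With shTRIB3-1, 4 of 7 rose and 0 fell, and with shTRIB3-2, 2 rose and 3 fell, where 32.9% and 41.5% of all tested genes rose and fell with the first hairpin and 35.4% and 40.5% with the second. The counts with shTRIB3-2 are near those shares. TCP1 stood at 242, 248 and 249 FPKM in the shCtrl libraries, 339.8, 362 and 349.9 in shTRIB3-1 and 293, 299 and 299 in shTRIB3-2. TCP1, which encodes subunit alpha, rose most (log2 fold change 0.51 ± 0.031 SE, adjusted p = 2.08e-08 for shTRIB3-1, and 0.27 ± 0.031, adjusted p = 5.76e-06 for shTRIB3-2). CCT2 rose with both hairpins, to 127% and 112% of the shCtrl mean. CCT3 and CCT4 rose with shTRIB3-1, to 115% and 114% of shCtrl. CCT4 fell with shTRIB3-2 to 95.1% (adjusted p = 0.047), a fall that did not pass in 9 of 18 alternative settings (highest adjusted p = 0.636), 6 of which left out 1 library. CCT7 and CCT8 fell with shTRIB3-2, to 91.9% (adjusted p = 0.0023) and 87.8% of shCtrl (adjusted p = 7.54e-04). After median centring the CCT7 fall did not pass (adjusted p = 0.124), and CCT7 passed as a rise with shTRIB3-1 (0.02). With shTRIB3-1, CCT8 stood at -0.074 ± 0.038 (adjusted p = 0.1), and it passed as a fall on TPM (0.0139), after quantile normalization (0.00406) and without shTRIB3-1 replicate 2 (0.0254). CCT5 stood between 92.8 and 103 FPKM and passed in no comparison, though it passed as a rise with shTRIB3-1 after median centring (0.0119) and as a fall with shTRIB3-2 after quantile normalization (0.0266). Antisense genes overlap 30.8% of the exon bases of CCT5, 16.9% of CCT4 and 9.3% of TCP1. The highest subunit stood at 2.82 to 2.98 times the level of the lowest in shCtrl libraries, 3.54 to 3.56 times in shTRIB3-1 and 3.23 to 3.30 times in shTRIB3-2.

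**Figure D4:**
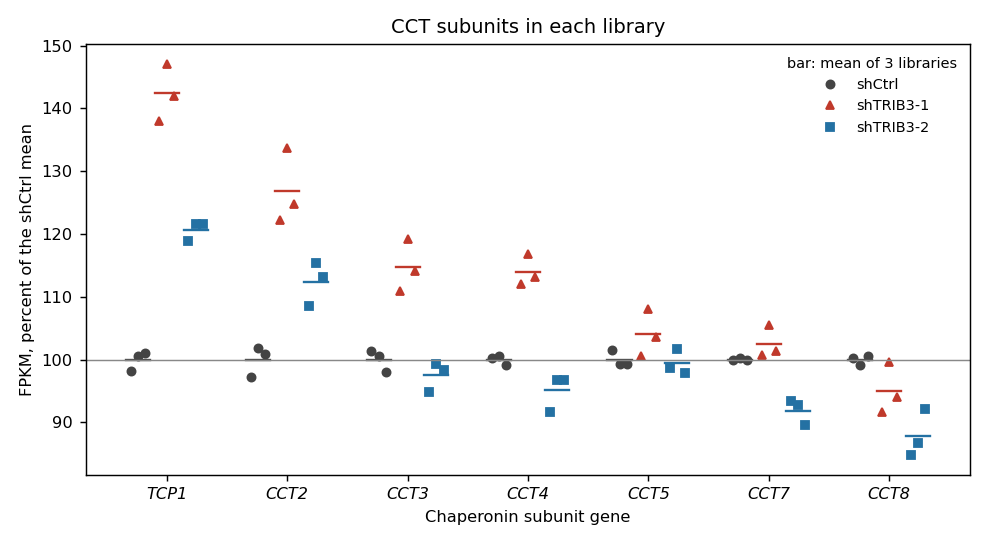
FPKM of the 7 CCT subunit genes in each library as percent of the shCtrl mean (y axis does not start at 0), with bars for group means. TCP1 and CCT2 lie above 100 in every knockdown library, and CCT3, CCT4, CCT7 and CCT8 lie below 100 in every shTRIB3-2 library.

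Inducible and constitutive genes were compared next. The 13 tested inducible genes all rose with shTRIB3-1, 10 of them called, with a median log2 fold change of 1.96. Of the 23 constitutive genes, 16 rose and 2 fell, 1 of them called, with a median of 0.21. Of all tested genes, 32.9% rose, 41.5% fell and 5.39% were called higher with this hairpin. With shTRIB3-2, 11 inducible genes rose and 2 fell (HSPA4L and HSPB1), 4 were called, and the median was 0.55. Of the constitutive genes, 8 rose, 8 fell and 7 did not pass. Of all tested genes, 35.4% rose, 40.5% fell and 6.06% were called higher, and the constitutive counts are near the first 2 shares. The constitutive median was -0.009, which turned to 0.042 after median centring. Between the hairpins, all 13 inducible genes were lower with shTRIB3-2 (median -1.30, 8 called). So were 19 of 23 constitutive genes (median -0.24, 0 called). Of all tested genes, 20.7% were lower and 1.79% were called lower. Without HSPA6 the inducible medians were 1.86, 0.48 and -1.22, and 9, 3 and 7 of 12 genes were called. The inducible class was defined from textbook knowledge of the heat shock response with these results known, so its direction is a description.

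**Figure D5:**
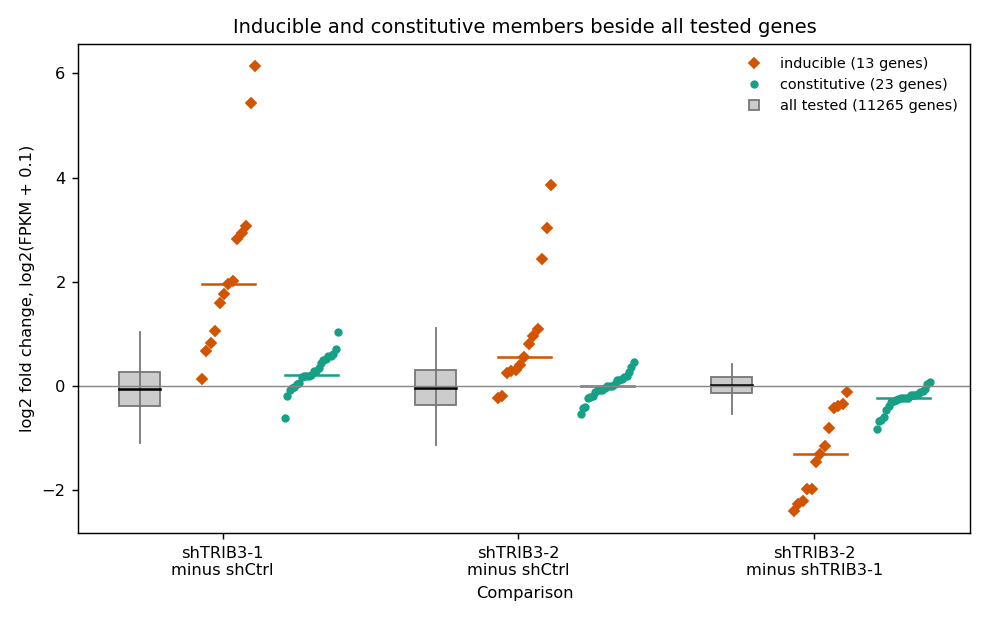
Log2 fold changes (y axis, log2 of FPKM + 0.1) of 13 inducible genes (diamonds) and 23 constitutive genes (circles) in 3 comparisons, with medians as lines, beside all 11265 tested genes (box from percentile 25 to 75, line at the median, whiskers from percentile 5 to 95). Most diamonds lie above the upper whisker (1.04) with shTRIB3-1, and most lie below the lower whisker (-0.54) between the hairpins.

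Summed over the listed genes with values, the class held 1.67, 1.70 and 1.69% of all FPKM in the shCtrl libraries, 2.74, 2.89 and 2.78% in shTRIB3-1 and 1.67, 1.68 and 1.71% in shTRIB3-2. Every shTRIB3-1 library was above every control and the shTRIB3-2 libraries overlapped the controls. The summed FPKM was 1.73 times the shCtrl mean with shTRIB3-1 and 1.02 times with shTRIB3-2. The inducible genes went from 0.326, 0.330 and 0.324% to 1.12, 1.18 and 1.10% and 0.423, 0.428 and 0.442%, and the constitutive genes from 1.34, 1.36 and 1.36% to 1.61, 1.71 and 1.66% and 1.24, 1.24 and 1.26%. In shTRIB3-2 the rise of inducible genes and the lower sum of constitutive genes, above all HSP90AB1 and HSPD1, left the total near that of shCtrl. By shCtrl level per length, HSP90AB1 ranked 27 of 24204 symbols, HSPD1 38, HSPA8 40 and HSP90AA1 62, and in shTRIB3-1 the same genes ranked 26, 21, 28 and 22.

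Genes of a further list, drawn up as other HSF1 targets, rose too, and whether HSF1 drives each of them here was not tested. Of 7 such genes, 7 rose and 5 were called with shTRIB3-1, and 6 rose and 1 was called with shTRIB3-2. Of all tested genes, 32.9% rose and 5.39% were called higher with the first hairpin, and 35.4% and 6.06% with the second. Between the hairpins 7 were lower with shTRIB3-2 and 2 of these were called, where 20.7% and 1.79% of all tested genes were. This list was chosen with earlier results of these data known, so its counts are a description. The activity of HSF1 was not tested. SERPINH1, a collagen chaperone, went from 26.8, 29.1 and 26.4 FPKM to 117, 116 and 111 in shTRIB3-1 (log2 fold change 2.06 ± 0.04 SE, adjusted p = 1.99e-12) and 39.8, 39.1 and 38.6 in shTRIB3-2 (log2 fold change 0.51 ± 0.04 SE, adjusted p = 1.51e-07). ZFAND2A, an arsenite- and heat-induced proteasome adaptor, rose by 1.37 ± 0.041 and 1.17 ± 0.041 SE (log2). IER5, an immediate early gene, rose by 1.65 ± 0.097 and 0.55 ± 0.097, and HMOX1, which degrades haem, by 1.15 ± 0.058 and 0.38 ± 0.058. DEDD2, a death effector domain gene, rose by 1.15 ± 0.045 and 0.62 ± 0.045. CACYBP did not pass with shTRIB3-2 (0.081 ± 0.05, adjusted p = 0.157).

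Of the other chaperone network genes in this paragraph, 0 were called in any comparison, though some changed as much as listed genes. Of 14 other tested cochaperones, 6 rose and 3 fell with shTRIB3-1, and 5 rose and 4 fell with shTRIB3-2, with 0 called. The largest rises were those of CDC37L1 (0.81 ± 0.059 and 0.91 ± 0.059 SE, log2), TOMM34 (0.67 ± 0.044 and 0.76 ± 0.044) and DNAJC7 (0.58 ± 0.029 and 0.53 ± 0.029). The shares of all tested genes that rose and fell were 32.9% and 41.5% with shTRIB3-1 and 35.4% and 40.5% with shTRIB3-2, and the counts of the lists in this paragraph are a description beside them. Of 9 prefoldin and CCT-related genes, 4 rose and 2 fell, then 1 rose and 2 fell, with 0 called. PDCL fell most (-0.50 ± 0.073 and -0.86 ± 0.073). Of 9 mitochondrial and other HSP70 and J-domain genes, 0 rose and 6 fell with shTRIB3-1, and 0 rose and 4 fell with shTRIB3-2. TRAP1, the mitochondrial HSP90, fell with both hairpins (-0.29 ± 0.042 and -0.40 ± 0.042), as did DNAJA3, the mitochondrial HSP40 (-0.71 ± 0.032 and -0.47 ± 0.032). Of 3 tested relatives of the heat shock factors, HSF4 and the HSF1-binding gene HSBP1 rose with both hairpins. HSF4 stood at 0.517 to 0.849 FPKM in shCtrl and at 0.925 to 1.11 in the knockdown libraries, and it met the filter only through knockdown libraries, so its rise is set in part by the filter.

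Chaperones of the endoplasmic reticulum, a list written after the values were seen, include genes that fell. Of 12 such genes, 2 rose and 8 fell with each hairpin, and PDIA4, a disulfide isomerase, was called lower with shTRIB3-2. Of all tested genes 41.5% and 40.5% fell with the first and second hairpin, and 6.27% were called lower with the second, so 1 called gene of 12 is near that share. HSPA5 (BiP), the HSP70 of that compartment, went from 373 ± 15.7 FPKM to 304 ± 9.84 and 297 ± 11.2. HSP90B1 (GRP94), its HSP90, went from 507 ± 26.0 to 362 ± 15.3 and 348 ± 9.75 FPKM. In every knockdown library HSP90B1 and HSPA5 stood below all controls, whereas HSP90AA1 and HSPA1A stood above them. This contrast did not hold for all genes of either list. HSP90AB1 and HSPB1 stood below all controls with shTRIB3-2. DNAJB9, of the endoplasmic reticulum list, stood above all controls with both hairpins (log2 fold change 0.51 ± 0.057 and 0.53 ± 0.057 SE). Since the endoplasmic reticulum list followed the values, its counts are a description.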

How the data were processed

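RNA-seq was done by the authors on 9 HepG2 libraries, 3 per group, and 1 table of FPKM for 24204 gene symbols was deposited. Per the labels and the processing notes, reads were counted with HTSeq on GRCh38, and R 3.2.0 is listed. STAR is the aligner named in the methods of the study. The labels and the methods name different library kits, and whether counting used strand and which annotation release was used are not given in the sources used here. The authors' FPKM values were used as deposited. Fragment numbers were recovered by a search for whole numbers whose ratios between libraries matched those of the FPKM values. Of 172760 values, 100% came within 0.02 of a whole fragment, a limit that the search itself used. Depth was then 34206726 to 36311029 fragments per library. The recovered numbers were used for depth, the fragment numbers given above, the comparison of replicate pairs and 1 alternative. Gene lengths recovered with them chose the transcripts searched for shared sequence.

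Each gene with FPKM of 1 or more in 3 or more libraries was tested on log2(FPKM + 0.1), a scale that understates the change of low genes, with limma 3.58.1 in R 4.3.3 (3 group means, moderated variances with a trend, two-sided), and p-values were adjusted by Benjamini-Hochberg over all 11265 genes in each of the 3 comparisons. Called means an adjusted p under 0.05 with a log2 change over 1. The same steps were tested on simulated data. Groups were taken from the sample labels. Replicate pairs differed by more than sampling noise (chi-square per degree of freedom 2.95 to 7.31). Group means are given ± SD (n = 3) and log2 fold changes ± SE.

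The genes, lists and tests were chosen with earlier results of these data known. Every listed gene was accounted for. Values in each library are given for 14 genes fixed by name, for any gene called in any comparison and for the gene of each role class with the greatest mean change, and other genes are given by group means or counts. Genes of other lists were named where called. HSPA5, HSP90B1, DNAJB9, CACYBP, TRAP1, DNAJA3, HSF4, HSBP1, CDC37L1, TOMM34, DNAJC7 and PDCL were named after their values were seen. The ER chaperone list was written after values were seen. Promoters (GRCh38.p14) came from RefSeq and were searched in Python 3.11.15. Shared sequence is the percent of 100-base windows of the transcripts of a gene that occur in another gene.

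Alternatives were 2 other pseudocounts, 2 other filters, median centring, TPM, quantile normalization, limma-voom on recovered fragments, leaving out each library, and a replicate block. No proteins were printed, DNAJA4 was not analysed here, and 1 gene of the list of other HSF1 targets is not reported here.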

Additional observations from a re-analysis of the deposited data

Results flagged for a closer look

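In 8 genes of the list the levels differed between the hairpins by over 1 on the log2 scale, each lower with shTRIB3-2, and 7 of them are given with the test of that difference. The differences (shTRIB3-2 minus shTRIB3-1) were -1.98 for HSPA1A, -1.98 for HSPA1B, -1.14 for HSPH1, -1.30 for DNAJB1, -2.20 for HSPB1, -2.40 for CRYAB and -1.45 for BAG3, with the highest adjusted p among these 7 from limma at 9.60e-10 (HSPH1). HSPA6 was at -2.27, given without a test because it was chosen with its rise known. In all 8 genes every shTRIB3-2 library was below every shTRIB3-1 library. Among all 11265 tested genes, 1.79% were called lower in this comparison.

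HSPB1 is the gene of these 8 whose shTRIB3-2 libraries also lay below every shCtrl library, and the other 7 had every shTRIB3-2 library above every shCtrl library. TRIB3 itself was also lower with shTRIB3-2 (20.5 FPKM) than with shTRIB3-1 (33.6 FPKM).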

How the results depend on the processing

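Of 2418 values recomputed for single genes under 18 alternative settings, 2348 kept their side of an adjusted p of 0.05. Another 40 no longer passed it and 30 newly passed it. Of the values that passed in the main fit, 0 changed direction. Direction was not checked for values that did not pass in the main fit. The counts of called genes were 11, 4 and 8 (shTRIB3-1, shTRIB3-2 and shTRIB3-2 against shTRIB3-1) under every setting, other than 12 and 5 with every symbol tested, where DNAJB5 was added, 10 on TPM for shTRIB3-1, where FKBP4 was lost, and 5 after median centring for shTRIB3-2, where HSPA1B was added. Leaving out 1 library left 11, 4 and 8 called, and 30 to 33, 29 to 31 and 31 to 35 genes at an adjusted p under 0.05. Among the differences between the hairpins, that of CHORDC1 was lost in 4 settings, that of CCT8 in 6 and that of TCP1 in 1, and that of DNAJB6 was gained in 7. The inducible median with shTRIB3-1 was 2.04 after median centring and 1.86 without HSPA6. Without HSPA6 it was 0.475 with shTRIB3-2 and -1.22 between the hairpins. The constitutive median with shTRIB3-1 was 0.29 after median centring and 0.156 on TPM, and between the hairpins it was -0.17 after quantile normalization. With shTRIB3-2 it was -0.009 and turned to 0.0424 after median centring. It ran from -0.0261 to 0.0125 when 1 library was left out, and was above 0 without shCtrl replicate 2 (0.0125) or shTRIB3-2 replicate 3 (0.0024). The sum over all listed genes in shTRIB3-1 was 1.66 times that in shCtrl on TPM. With 2 adjoining units in place of 3, 22 promoters held a match. The cause of these shifts was not tested.

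Over all tested genes, a pseudocount of 1 lowered the called counts from 607 higher and 687 lower to 376 and 404 with shTRIB3-1, from 683 and 706 to 411 and 477 with shTRIB3-2, and from 32 and 202 to 4 and 80 between the hairpins. A filter at an FPKM of 5, which tests fewer genes, gave 338 and 407, 382 and 419, and 7 and 119. Testing every symbol gave 1085 and 914 with shTRIB3-1 and 65 and 352 between the hairpins.

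Replicate numbers were shared by the groups, and same-numbered libraries deviated together weakly or not at all (correlation of deviations from -0.074 to 0.093 over 9 pairs). Between the knockdown groups it was 0.028 to 0.093 for same numbers and -0.076 to 0.014 for different numbers. Between shCtrl and shTRIB3-1 it was 0.023 to 0.039 and -0.038 to 0.002. Between shCtrl and shTRIB3-2 it was -0.074 to 0.004 and -0.038 to 0.048. These values are small, and the numbers were not taken as a pairing. A fit with the replicate number as a block kept 11, 4 and 8 called genes, and 31, 32 and 33 genes at an adjusted p under 0.05. Under it the rise of HSPA4L with shTRIB3-1 was lost (limma adjusted p = 0.0503) and a fall of HSPA9 with shTRIB3-2 was gained (0.0462).
Depth was 34206726 to 36311029 fragments per library, at which HSPA2 (1 to 5 fragments) could not be compared, and counts of fragments cover counting error only.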
